A study of Homo sapiens with 18 samples.

Results

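The expression of 6 genes of inositol metabolism was examined in human endometrial stromal cells: IMPA1, IMPA2, INPP1, BPNT2, ISYNA1 and SLC5A3. The 6 genes were taken by symbol from the 78724 genes of the deposited count table, and all 6 passed the filter on low counts that left 15558 genes for testing. IMPA2 was chosen by a measured value of these libraries, because its log2 response to medroxyprogesterone acetate (MPA) was larger in the lines with an activated progesterone receptor gene. Its values are therefore given as a description, with no test, and tests were made on the other 5 genes.

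Cells draw myo-inositol, the sugar alcohol at the head of the phosphoinositide lipids, from outside, from new synthesis and from recycling. SLC5A3 (SMIT1) carries it in with sodium, ISYNA1 forms inositol phosphate from a glucose phosphate, and the monophosphatases IMPA1 and IMPA2 remove the last phosphate. INPP1 acts one step earlier, on inositol bisphosphates, and lithium inhibits this family of phosphatases. BPNT2, a relative in the Golgi, cleaves the phosphoadenosine phosphate that sulfation leaves behind. In stromal cells of the endometrium, progestins drive decidualization, the change that prepares the lining for pregnancy.

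The cells were THESC, an established, immortalised line of human endometrial stromal cells, engineered with CRISPR guides to activate the progesterone receptor gene, PGR, and kept in blasticidin. Promoter cells carried a guide labelled as a promoter guide and are labelled as dominated by the B isoform of the progesterone receptor, U1U2 cells carried guides called U1U2 and are labelled as holding the A and B isoforms equally, and NT cells carried a non-targeting guide and are labelled wild type. After a day in low serum, each line received 1 µM MPA, a synthetic progestin, or vehicle (0.01% ethanol) for 72 hours. The 6 groups were promoter cells in MPA, promoter cells in vehicle, U1U2 cells in MPA, U1U2 cells in vehicle, NT cells in MPA and NT cells in vehicle, with 3 libraries each and 18 in all. The labels do not say whether a line was 1 clone or a pool, nor that replicates were separate cultures. The p-values therefore speak of the variation among these samples, and that variation may be technical.

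Library totals ran from 11.9 M to 33.4 M counts, with a median of 22.9 M. PGR, the gene that the guides were meant to activate, averaged 434 ± 40.1 CPM (counts in each 1 M counts of a library) in promoter cells and 596 ± 72.5 CPM in U1U2 cells, against 140 ± 17.6 CPM in NT cells, all in vehicle (SD, n = 3 each). In MPA it averaged 282 ± 19.4 CPM in promoter cells and 260 ± 32.7 CPM in U1U2 cells, against 84.5 ± 9.65 CPM in NT cells (SD, n = 3 each), and the promoter and U1U2 libraries overlapped there. PGR was lower in MPA than in vehicle by 0.62 ± 0.12, 1.20 ± 0.12 and 0.73 ± 0.12 on the log2 scale in promoter, U1U2 and NT cells (adjusted p 0.00142, 1.67e-06 and 0.000881, edgeR). Gene counts do not separate the A and B isoforms. Of 12 stromal markers 11 passed the filter and TCF21 had 0 counts in all 18 libraries, so the labelled cell type was not marked by that gene. The endothelial markers PECAM1 and CDH5 had at most 4 and 2 counts in a library, and CLDN3, CLDN5, CD3E and MS4A1 had 0 counts in every library. Other markers on the same lists were present, with 673 to 2675 counts per library of the endothelial receptor gene TEK, 142 to 1134 of the epithelial keratin gene KRT19 and 33 to 143 of the leukocyte gene PTPRC. In bulk RNA, fewer cells of a type and less RNA per cell cannot be told apart.

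The sequences upstream of SLC5A3 and INPP1 are shown because SLC5A3 was the tested gene that was called in every line and INPP1 is a measured partner that was not. Each is the RefSeq window on GRCh38.p14 from 250 bases before to 50 bases after the gene's start, 5′ to 3′ on the + strand, and capitals mark matches of the GC box GGGCGG on either strand. Such windows were matched for 3 of the 6 genes. The SLC5A3 window is chr21:34073328-34073627 and the INPP1 window is chr2:190343339-190343638.
SLC5A3: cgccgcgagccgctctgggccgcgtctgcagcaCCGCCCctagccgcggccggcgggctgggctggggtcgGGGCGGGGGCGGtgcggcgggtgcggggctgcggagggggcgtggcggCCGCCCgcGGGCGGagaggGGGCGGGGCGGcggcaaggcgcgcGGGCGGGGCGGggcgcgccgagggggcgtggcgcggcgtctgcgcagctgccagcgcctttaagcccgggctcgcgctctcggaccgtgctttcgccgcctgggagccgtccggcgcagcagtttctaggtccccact
INPP1: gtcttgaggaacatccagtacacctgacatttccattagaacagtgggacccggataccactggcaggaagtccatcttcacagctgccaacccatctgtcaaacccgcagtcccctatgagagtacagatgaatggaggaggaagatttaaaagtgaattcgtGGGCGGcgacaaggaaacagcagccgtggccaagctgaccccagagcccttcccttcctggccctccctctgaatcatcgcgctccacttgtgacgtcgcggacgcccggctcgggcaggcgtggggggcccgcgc
The SLC5A3 window held 9 overlapping or separate matches of GGGCGG and the INPP1 window held 1, and 45% of 35116 RefSeq windows held at least 1. The third gene with a match, ISYNA1, was not called either, and its 2 windows, not shown, held 2 and 6 matches. Guanine and cytosine made up 82% of the SLC5A3 window and 58.7% of the INPP1 window, against a median of 58.67% over all windows. Both ISYNA1 windows stood at 74.7%, and no link of these letters to the calls was tested. The palindromic steroid receptor element, GNACA and TGTNC with any 3 bases between them, was searched on both strands; it matched neither window and 0.39% of all windows. The steroid receptor core TGTTCT, searched on both strands, matched the INPP1 window once and the SLC5A3 window not at all, and it matched 14.8% of all windows. TGGAAA, the core of tonicity elements, also searched on both strands, matched the INPP1 window once and the SLC5A3 window not at all, and it matched 20.7% of all windows. A match describes letters in this window only.

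IMPA2 (ENSG00000141401), an inositol monophosphatase, spans 11981025 to 12030883 on the + strand of chromosome 18 in GRCh38 (GENCODE 29). Its mRNA was scarce in all vehicle groups and much higher in MPA. In promoter cells it stood at 65.1, 58.1 and 52.0 CPM in MPA, against 4.65, 5.08 and 3.70 CPM in vehicle. In U1U2 cells it stood at 47.5, 41.8 and 45.7 CPM in MPA, against 3.46, 4.87 and 4.83 CPM in vehicle. In NT cells it stood at 11.9, 12.2 and 14.2 CPM in MPA, against 3.60, 3.86 and 4.19 CPM in vehicle. Every MPA library lay above every vehicle library, also across lines, and the 3 vehicle groups overlapped one another.

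The fold change of IMPA2 in MPA over vehicle was 13.2-fold in promoter cells (log2 3.72 ± 0.15, SE), 10.2-fold in U1U2 cells (3.35 ± 0.15) and 3.26-fold in NT cells (1.70 ± 0.15). These values rest on 1152 to 1729 counts per library in MPA and 81 to 148 in vehicle in promoter cells, and on 206 to 385 in MPA and 43 to 81 in vehicle in NT cells. By the size of the log2 fold change, IMPA2 stood 33rd, 28th and 72nd from the top of 15558 genes in promoter, U1U2 and NT cells. Separation of the libraries in this direction occurred in 17.6% of all tested genes in promoter cells, 11.5% in U1U2 cells and 9.49% in NT cells, and nothing is read from it, since IMPA2 was chosen for this contrast.

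The order of IMPA2 levels in MPA was promoter cells, U1U2 cells and NT cells, with means of 58.4 ± 6.56, 45.0 ± 2.93 and 12.7 ± 1.25 CPM (SD, n = 3 each). The libraries of these 3 groups did not overlap; such separation upward occurred in 10.2% of all tested genes for promoter against NT cells, 5.5% for U1U2 against NT cells and 4.72% for promoter against U1U2 cells, and nothing is read from it either. In MPA, IMPA2 was 4.61-fold as high in promoter cells as in NT cells, 3.55-fold as high in U1U2 cells as in NT cells, and 1.30-fold as high in promoter cells as in U1U2 cells. In vehicle the log2 difference was 0.18 ± 0.16 both for promoter against NT cells and for U1U2 against NT cells, within the spread of the libraries. The log2 MPA response of IMPA2 was larger by 2.02 ± 0.21 in promoter than in NT cells and by 1.64 ± 0.21 in U1U2 than in NT cells, and the promoter and U1U2 responses differed by 0.38 ± 0.20 (SE).

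**Figure D1:**
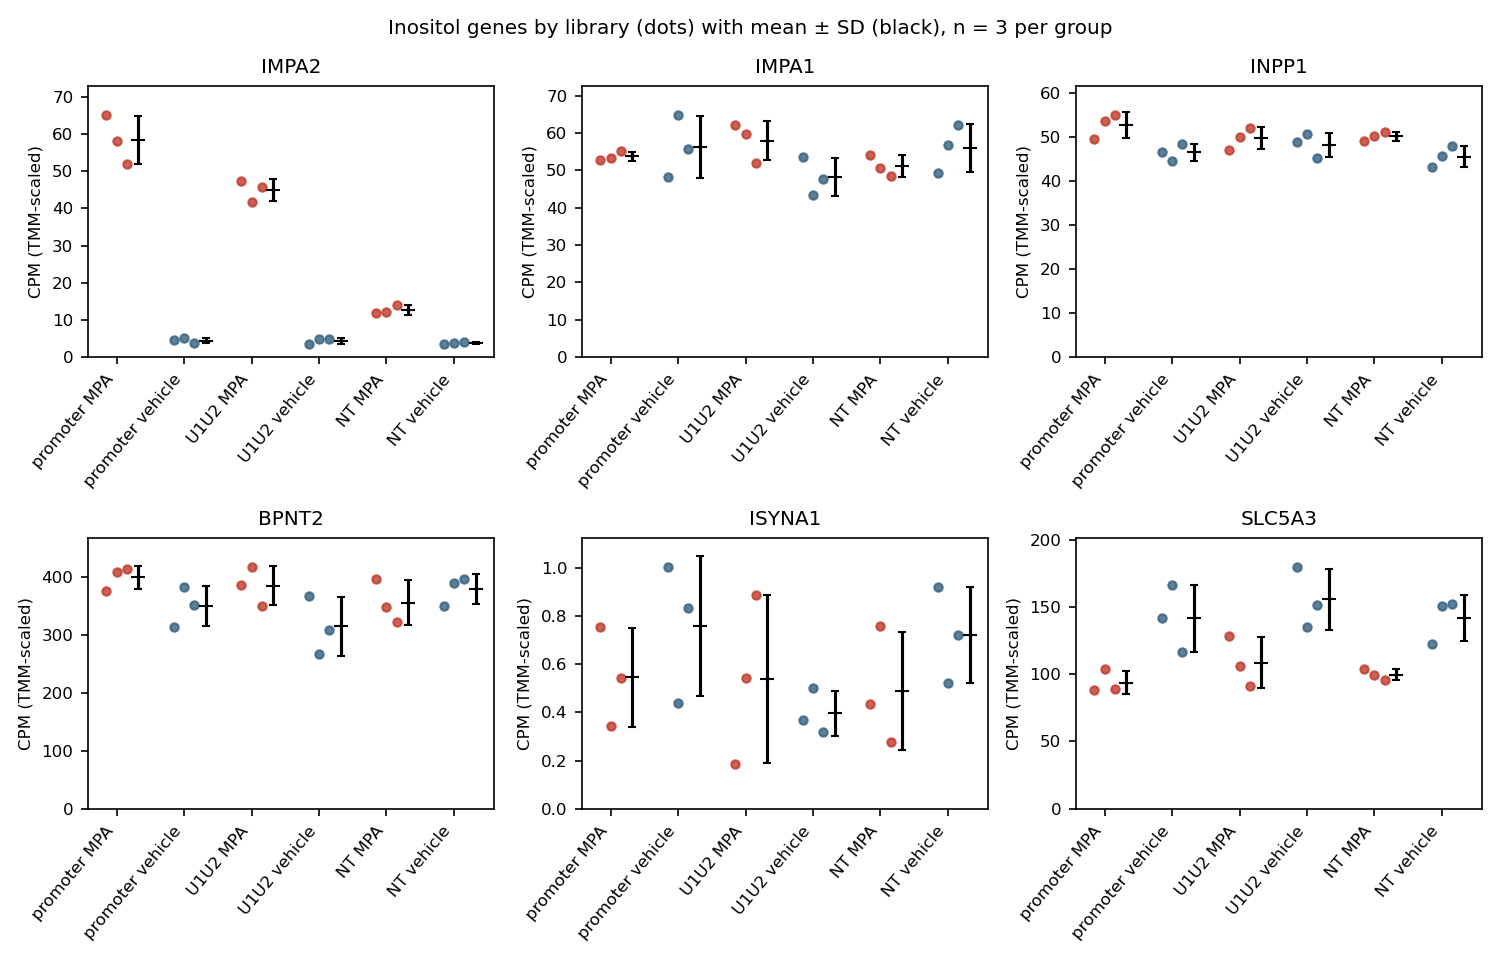
CPM (TMM-scaled) of the 6 inositol genes in each of the 18 libraries, as dots, with the group mean ± SD in black (n = 3 per group). IMPA2 stands between 52.0 and 65.1 CPM in promoter cells in MPA and under 5.1 CPM in every vehicle library, and SLC5A3 is lower in MPA than in vehicle within each line.

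IMPA1 (ENSG00000133731, chromosome 8, 81657961 to 81686693, - strand), the other monophosphatase, kept a narrow range from 43.3 to 64.8 CPM over all 18 libraries. Its means were 53.7 ± 1.20 CPM in MPA and 56.2 ± 8.31 CPM in vehicle in promoter cells, 57.9 ± 5.19 and 48.2 ± 5.07 CPM in U1U2 cells, and 51.0 ± 2.95 and 56.0 ± 6.44 CPM in NT cells (SD, n = 3 each). The groups overlapped in each line. The log2 fold change in MPA was -0.06 ± 0.11 in promoter cells, 0.27 ± 0.11 in U1U2 cells and -0.14 ± 0.11 in NT cells, with adjusted p of 0.775, 0.154 and 0.599 (edgeR's quasi-likelihood test). The 95% intervals ran from -0.30 to 0.17, from 0.03 to 0.50 and from -0.37 to 0.10, so changes in mRNA of the size of IMPA2's lay outside them.

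Per kilobase of merged exon, IMPA2 and IMPA1 reached about the same level in promoter cells in MPA. The merged length joins the exons of all annotated transcripts, 12 of IMPA2 and 13 of IMPA1. Which of these transcripts the cells hold was not measured. The level of IMPA2 beside IMPA1 and the shares below depend on that choice of length. IMPA2 averaged 15.3 ± 1.71 CPM per kilobase there and IMPA1 14.4 ± 0.323 CPM per kilobase. In promoter cells in vehicle IMPA2 averaged 1.17 ± 0.185 and IMPA1 15.1 ± 2.23 CPM per kilobase. IMPA2 made up 51.3 ± 3.34% of the summed level of the 2 genes in MPA, against 7.25 ± 1.26% in vehicle, in promoter cells. In U1U2 cells its share was 43.1 ± 2.79% in MPA, against 8.24 ± 2.06% in vehicle. In NT cells it was 19.6 ± 2.37% in MPA, against 6.33 ± 0.258% in vehicle (SD, n = 3 each). The shift in share came with the IMPA2 values described above, and the share gets no test.

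**Figure D2:**
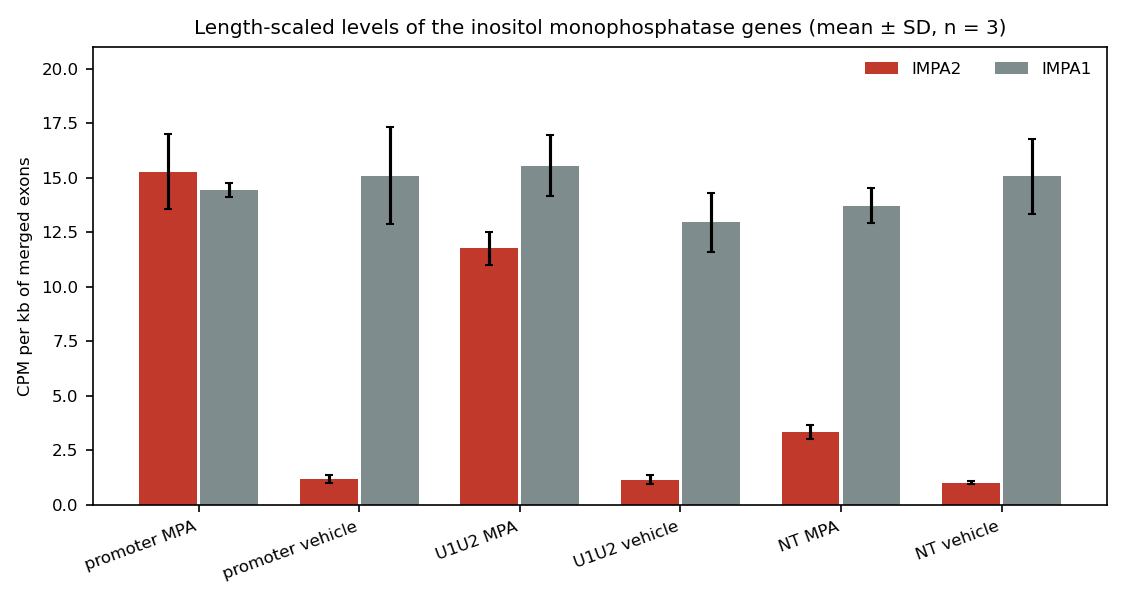
Mean CPM per kilobase of merged exon of the monophosphatases IMPA2 and IMPA1 in the 6 groups, with SD as error bars (n = 3 libraries per group). The bars for IMPA2 reach 15.3 in promoter cells in MPA and stay at or under 1.17 in the vehicle groups, whereas IMPA1 stays between 13.0 and 15.6 in all groups.

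INPP1 (ENSG00000151689, chromosome 2, 190343470 to 190371665, + strand), which feeds the monophosphatases, had the narrowest range of the 6 genes, at 43.2 to 55.0 CPM over the 18 libraries, a ratio of 1.27. In promoter cells it averaged 52.8 ± 2.87 CPM in MPA and 46.5 ± 1.98 CPM in vehicle, a log2 fold change of 0.18 ± 0.07 with an adjusted p of 0.121. The values in NT cells were 50.2 ± 0.971 and 45.6 ± 2.39 CPM (0.14 ± 0.08, adjusted p 0.383), and in U1U2 cells 49.8 ± 2.53 and 48.3 ± 2.73 CPM (0.05 ± 0.07, adjusted p 0.766; SD, n = 3 each). The MPA libraries lay above the vehicle libraries in promoter and in NT cells and overlapped them in U1U2 cells, but no contrast was called by edgeR. Upward separation occurred in 17.6% of all tested genes in promoter cells and 9.49% in NT cells, so nothing is read from it. INPP1 shares 202 exon bases with HIBCH on the other strand, and since the strand setting of the counting is not given, reads of the 2 genes there cannot be told apart.

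BPNT2 (ENSG00000104331, named IMPAD1 in the annotation; chromosome 8, 56957933 to 56993844, - strand) had the highest level of the 6 genes. Its means per kilobase ran from 41.5 to 52.6 CPM over the groups. In promoter cells it averaged 399 ± 19.8 CPM in MPA and 350 ± 34.5 CPM in vehicle, in U1U2 cells 385 ± 33.7 and 315 ± 50.7 CPM, and in NT cells 356 ± 38.4 and 379 ± 25.3 CPM (SD, n = 3 each). The groups overlapped in each line. Its log2 fold changes of 0.19 ± 0.11, 0.29 ± 0.11 and -0.09 ± 0.11 in promoter, U1U2 and NT cells had adjusted p of 0.306, 0.121 and 0.741 (edgeR). Without U1U2 vehicle replicate 1, the U1U2 value was 0.42 with an adjusted p of 0.0236.

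ISYNA1 (ENSG00000105655, chromosome 19, 18434388 to 18438301, - strand), the synthase that makes inositol phosphate anew, was close to the detection limit. It had 4 to 32 counts per library, and its group means lay between 0.396 and 0.760 CPM. MPA libraries overlapped vehicle libraries in each line. The log2 fold changes of -0.55 ± 0.43, 0.49 ± 0.47 and -0.39 ± 0.49 in promoter, U1U2 and NT cells had 95% intervals from -1.45 to 0.35, from -0.50 to 1.48 and from -1.41 to 0.64, so a change of a size inside these intervals is not excluded. SSBP4, on the other strand, shares 175 of its exon bases.

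SLC5A3 (ENSG00000198743, chromosome 21, 34073570 to 34106262, + strand), the sodium-coupled inositol transporter, fell in MPA in all 3 lines. In promoter cells it stood at 88.4, 104 and 89.0 CPM in MPA, against 142, 166 and 117 CPM in vehicle. In U1U2 cells it stood at 129, 106 and 91.2 CPM in MPA, against 180, 135 and 152 CPM in vehicle. In NT cells it stood at 104, 99.8 and 95.5 CPM in MPA, against 123, 151 and 152 CPM in vehicle. Within each line every MPA library lay below every vehicle library, while across lines the ranges met, at 88.4 to 129 CPM over the 9 MPA libraries and 117 to 180 CPM over the 9 vehicle libraries.

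The log2 fold change of SLC5A3 was -0.59 ± 0.14 in promoter cells (adjusted p 0.00744), -0.52 ± 0.14 in U1U2 cells (adjusted p 0.0212) and -0.51 ± 0.14 in NT cells (adjusted p 0.0408), by edgeR's quasi-likelihood test adjusted over 15558 genes. Calls in the lower direction were made for 8.4%, 6.22% and 3.48% of all genes in promoter, U1U2 and NT cells. Libraries below their vehicle counterparts without overlap occurred in 18.1%, 12.3% and 9.78% of all tested genes in promoter, U1U2 and NT cells. The 3 comparisons share no library. Each call was lost when certain single libraries were left out. Without promoter vehicle replicate 2 the adjusted p in promoter cells was 0.0529, with a value of -0.47. In U1U2 cells the call was lost without vehicle replicate 1 (-0.40), MPA replicate 2 (-0.50) or MPA replicate 3 (-0.41). In NT cells it was lost without vehicle replicate 2 (-0.47) or 3 (-0.47) and without MPA replicate 1 (-0.56), 2 (-0.51) or 3 (-0.50). Averaged over the 3 lines, a contrast chosen after seeing the data, the log2 fold change was -0.54 ± 0.08 with an adjusted p of 6.49e-05, and with each of the 18 libraries left out in turn it ran from -0.60 to -0.50 with an adjusted p of at most 0.000248. In that contrast 11.9% of all genes were called lower. INPP1 stood at 0.12 ± 0.04 in it and was not called (adjusted p 0.0521, edgeR). With 1 library left out at a time its adjusted p ran from 0.0423 to 0.173. IMPA1, BPNT2 and ISYNA1 had adjusted p of 0.85, 0.182 and 0.754 in the same contrast. SLC5A3 lies inside the span of MRPS6, a mitochondrial ribosomal protein gene on the same strand, with 273 shared exon bases (2.36% of SLC5A3's). MRPS6 had 478 counts in all 18 libraries together and log2 fold changes of -0.29 ± 0.36, -0.10 ± 0.36 and -0.31 ± 0.37 in promoter, U1U2 and NT cells, none of them called.

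**Figure D3:**
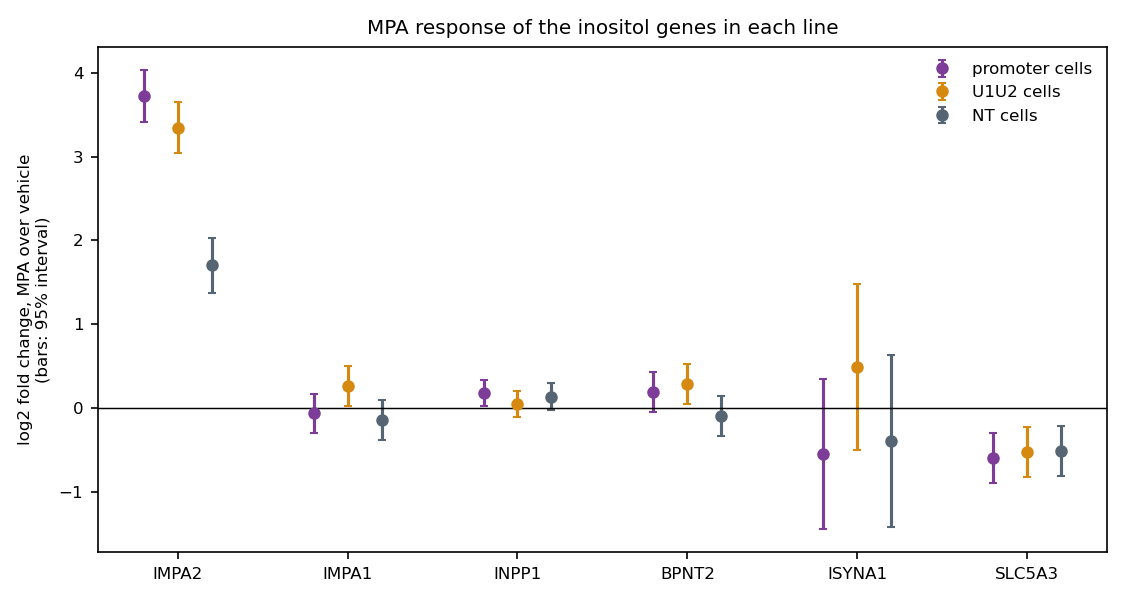
Log2 fold change of MPA over vehicle with its 95% interval for the 6 inositol genes in promoter, U1U2 and NT cells. IMPA2 stands at 3.72, 3.35 and 1.70, SLC5A3 lies below 0 in the 3 lines, and the wide intervals belong to ISYNA1.

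Of the 5 tested genes, 1 was called in each line in MPA against vehicle, SLC5A3 each time and by DESeq2 as well. Over all tested genes edgeR called 15% in promoter cells, 11.7% in U1U2 cells and 5.93% in NT cells, and 1 of 5 is too few to set apart from these shares. At an unadjusted p under 0.05 there were also INPP1 in promoter cells and IMPA1 and BPNT2 in U1U2 cells.

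Between lines, 0 of the 5 genes were called by edgeR, in vehicle or in MPA, and 0 by DESeq2, which gave an adjusted p for 4 or 5 of them. In vehicle edgeR called 6.75% of all genes for promoter against NT cells, 1.14% for U1U2 against NT cells and 0.784% for promoter against U1U2 cells, and in MPA 4.15%, 1.72% and 0.328%. At an unadjusted p under 0.05 the vehicle pairs gave BPNT2 for U1U2 against NT cells (log2 -0.27 ± 0.11, adjusted p 0.261) and ISYNA1 for promoter against U1U2 cells (1.00 ± 0.44, adjusted p 0.506), and the MPA pairs gave 0 genes. The MPA responses themselves did not pass the test of a difference between lines for any of the 5 genes, where edgeR called 1.56% of all genes for promoter minus NT, 0.219% for U1U2 minus NT and 0.0129% for promoter minus U1U2. IMPA1 (0.40 ± 0.16, adjusted p 0.463) and BPNT2 (0.38 ± 0.16, adjusted p 0.482) had an unadjusted p under 0.05 for U1U2 minus NT. For SLC5A3 the response differed by -0.08 ± 0.20 for promoter minus NT, with a 95% interval from -0.50 to 0.34, and by -0.01 ± 0.20 for U1U2 minus NT, from -0.43 to 0.41.

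The wider pathway was described through 8 lists with 119 genes besides the 6, of which 102 were tested. The lists were chosen with earlier results of these data known, so no excess over all tested genes is read from their shares. In MPA against vehicle, 25 of the 102 were called in promoter cells (8 higher, 17 lower), 22 in U1U2 cells (8 higher, 14 lower) and 12 in NT cells (5 higher, 7 lower), or 24.5%, 21.6% and 11.8%. Over all tested genes 6.63% were called higher and 8.4% lower in promoter cells, 5.44% and 6.22% in U1U2 cells, and 2.44% and 3.48% in NT cells. The median log2 fold change of the 102 genes was -0.06, -0.05 and 0.01, beside -0.0034, 0.03 and 0.02 over all tested genes. The number called in promoter cells was 15 without promoter MPA replicate 2, in U1U2 cells 13 without U1U2 vehicle replicate 2, and in NT cells 7 without NT MPA replicate 3.

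Among the genes of inositol uptake, oxidation and osmolyte balance, 5 of 8 were tested, and 2 were called lower in promoter cells, 1 in U1U2 cells and 1 in NT cells. Calls in the lower direction covered 8.4%, 6.22% and 3.48% of all tested genes there, and 5 genes are too few to set apart from these shares. SLC6A6, the taurine transporter, fell in every line. It stood at 22.6, 22.3 and 20.8 CPM in promoter cells in MPA, against 37.1, 33.0 and 40.7 CPM in vehicle. Its log2 fold change was -0.76 ± 0.11 in promoter cells, -0.74 ± 0.11 in U1U2 cells and -0.63 ± 0.11 in NT cells, with adjusted p of 6.98e-05, 0.000124 and 0.00117 (edgeR). AKR1B1, the aldose reductase that makes sorbitol, fell in promoter cells by 0.81 ± 0.24 on the log2 scale (adjusted p 0.0277), a call that was lost under 5 of 11 alternatives, each with 1 library left out. NFAT5, the transcription factor of the response to high tonicity, had values of 0.02 ± 0.14, -0.22 ± 0.14 and -0.39 ± 0.15 in promoter, U1U2 and NT cells and was not called. SLC2A13, the proton-coupled inositol transporter, had values of 0.18 ± 0.20, 0.26 ± 0.20 and -0.28 ± 0.20 and was not called. Both NFAT5 and SLC2A13 were picked for mention after their values were seen.

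The phospholipase C enzymes, which cut phosphoinositides to inositol trisphosphate, and the receptors of that messenger gave 8 calls of 17 in promoter cells (5 higher, 3 lower), 6 in U1U2 cells and 6 in NT cells (4 higher and 2 lower in each). These were 47.1%, 35.3% and 35.3% of the list, beside 15%, 11.7% and 5.93% of all tested genes. With a list chosen when earlier results were known, nothing is read from that difference in shares. PLCB4, an isoform driven by G proteins, rose in all lines. It stood at 65.6, 72.6 and 70.9 CPM in promoter cells in MPA, against 35.0, 36.2 and 32.5 CPM in vehicle. In U1U2 cells it stood at 96.6, 101 and 91.8 CPM in MPA, against 39.2, 34.1 and 38.7 CPM in vehicle. In NT cells it stood at 47.8, 44.0 and 49.3 CPM in MPA, against 26.3, 30.1 and 30.1 CPM in vehicle. No MPA library overlapped a vehicle library in any line, and the U1U2 libraries were the highest in MPA. The log2 difference of promoter against U1U2 cells in MPA was -0.47 (adjusted p 0.0156, edgeR), a call lost under 7 of 11 alternatives. Upward separation from vehicle occurred in 17.6%, 11.5% and 9.49% of all tested genes in promoter, U1U2 and NT cells. The log2 fold changes were 1.01 ± 0.08, 1.37 ± 0.08 and 0.70 ± 0.09 in promoter, U1U2 and NT cells, with adjusted p of 8.27e-08, 2.49e-09 and 2.85e-05 (edgeR).

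PLCL1, a family member without catalytic activity, rose by 1.77 ± 0.23, 1.66 ± 0.24 and 1.39 ± 0.26 on the log2 scale in promoter, U1U2 and NT cells (adjusted p 2.16e-05, 0.000106 and 0.00197, edgeR). Its level was low, at 3.03 to 6.70 CPM in the MPA libraries, against 0.875 to 2.26 CPM in the vehicle libraries. PLCXD3 rose by 1.09 ± 0.18 in promoter cells and 0.83 ± 0.17 in U1U2 cells, and its call in NT cells (0.63 ± 0.18, adjusted p 0.0472) was lost under 9 of 11 alternatives. PLCG2, a phospholipase C of the gamma class at 0.190 to 1.94 CPM over the 18 libraries, fell by 1.24 ± 0.39 on the log2 scale in promoter cells (adjusted p 0.0365), a call lost under 6 of 11 alternatives. The other genes of this list called lower were PLCL2 and PLCB1, in every line. PLCL2, a relative of PLCL1, fell by 0.85 ± 0.10, 0.75 ± 0.10 and 0.61 ± 0.10, and PLCB1, a relative of PLCB4, by 0.49 ± 0.12, 0.45 ± 0.12 and 0.67 ± 0.12 in promoter, U1U2 and NT cells. Of these calls 1 was lost under some alternatives, that of PLCB1 in U1U2 cells, under 5 of 11. ITPR1, an inositol trisphosphate receptor of the endoplasmic reticulum, rose by 0.96 ± 0.11 in promoter cells and 0.57 ± 0.10 in U1U2 cells. Its value in NT cells was 0.47 ± 0.11, with a call lost under 5 of 11 alternatives. PLCL2, PLCB1 and ITPR1 were picked for mention after their values were seen.

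Of the 24 tested phosphatases of inositol polyphosphates and phosphoinositides, 5 were called in promoter cells (1 higher, 4 lower), 5 in U1U2 cells (1 higher, 4 lower) and 1 in NT cells (lower). The list's shares were 20.8%, 20.8% and 4.17%, beside 15%, 11.7% and 5.93% of all tested genes. SYNJ2, a synaptojanin that removes phosphates from phosphoinositides, fell by 0.64 ± 0.07, 0.51 ± 0.07 and 0.46 ± 0.07 on the log2 scale in promoter, U1U2 and NT cells (adjusted p 2.73e-06, 4.66e-05 and 0.000337, edgeR). INPP5J, a 5-phosphatase at 0.281 to 1.59 CPM over the 18 libraries, fell by 1.44 ± 0.37 in promoter cells, and the adjusted p was 0.0536 without promoter MPA replicate 2. FIG4, a phosphoinositide 5-phosphatase, fell by 0.46 ± 0.11 in U1U2 cells, a call lost under 3 of 11 alternatives. PIP4P1, a phosphatase of phosphatidylinositol bisphosphate, fell by 0.45 ± 0.13 in promoter cells and 0.42 ± 0.13 in U1U2 cells, with calls lost under 3 and 8 of 11 alternatives.

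Of 18 tested phosphoinositide kinase genes, 4 were called in promoter cells (1 higher, 3 lower), 5 in U1U2 cells (1 higher, 4 lower) and 1 in NT cells (lower). That made 22.2%, 27.8% and 5.56%, beside 15%, 11.7% and 5.93% of all tested genes. PIK3R3, a regulatory subunit of phosphoinositide 3-kinase, fell by 0.90 ± 0.12 in promoter cells, 0.97 ± 0.11 in U1U2 cells and 0.59 ± 0.11 in NT cells on the log2 scale. PIK3R1, another such subunit, rose by 0.80 ± 0.09 in promoter cells and 0.46 ± 0.09 in U1U2 cells, and its value in NT cells was 0.16 ± 0.09 (adjusted p 0.408). PIP4K2C, a phosphatidylinositol phosphate kinase, fell by 0.66 ± 0.13 in promoter cells and 0.58 ± 0.13 in U1U2 cells, and its value in NT cells was -0.08 ± 0.13. PI4K2A, a phosphatidylinositol 4-kinase, fell by 0.53 ± 0.12 in promoter cells and 0.41 ± 0.12 in U1U2 cells, and the U1U2 call was lost under 6 of 11 alternatives.

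**Figure D4:**
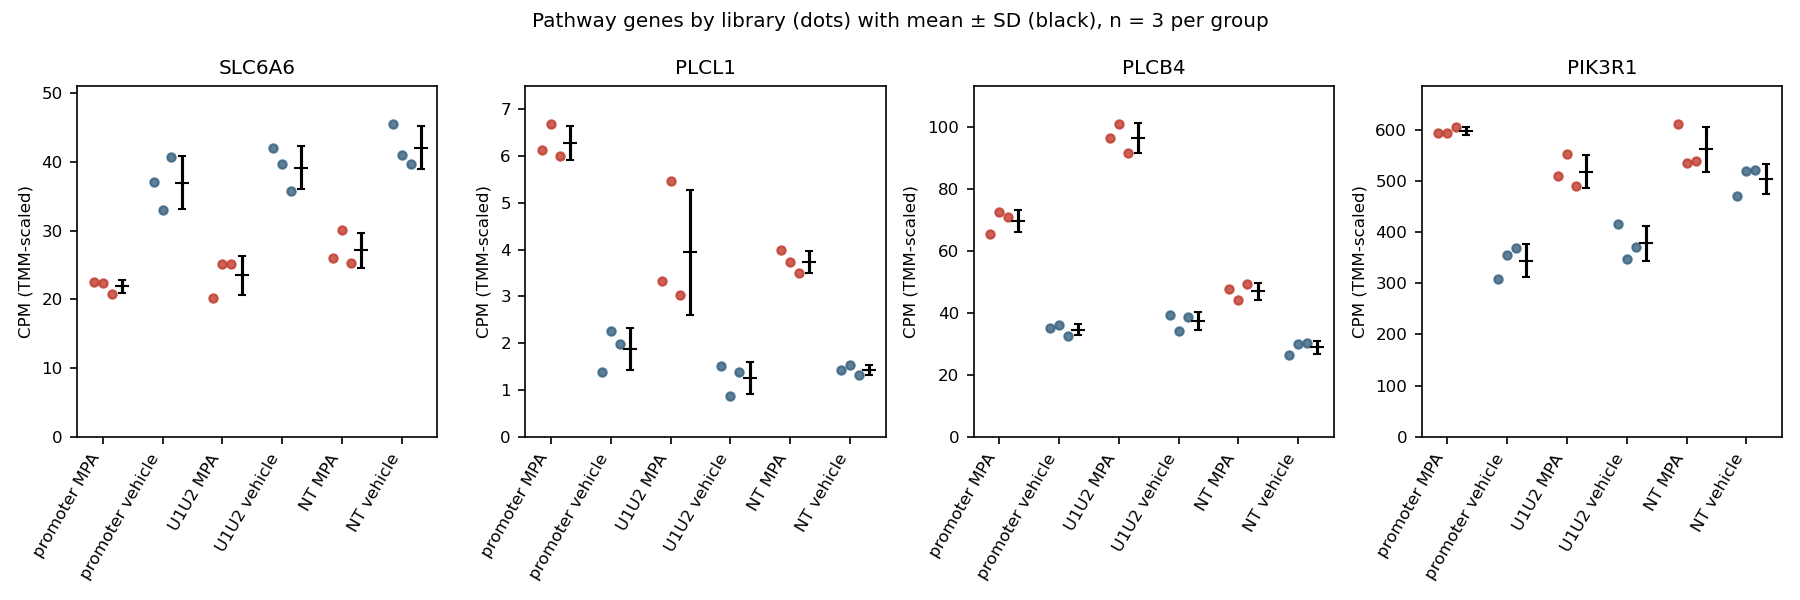
CPM of SLC6A6, PLCL1, PLCB4 and PIK3R1 in each of the 18 libraries, as dots, with the group mean ± SD (n = 3 per group). SLC6A6 is lower in MPA than in vehicle in each line, PLCB4 reaches 101 CPM in U1U2 cells in MPA, and PIK3R1 in vehicle is lower in promoter and U1U2 cells than in NT cells, where the U1U2 call was lost under 6 of 11 alternatives.

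Of 11 tested inositol phosphate kinases and diphosphatases, 3, 2 and 1 were called in promoter, U1U2 and NT cells, among them ITPKB, an inositol trisphosphate kinase, which fell by 0.57 ± 0.16, 0.71 ± 0.16 and 0.59 ± 0.16 on the log2 scale in promoter, U1U2 and NT cells. As shares, 27.3%, 18.2% and 9.09% of that list were called, beside 15%, 11.7% and 5.93% of all tested genes. The promoter and NT calls of ITPKB were lost under 3 and 6 of 11 alternatives. NUDT11, an inositol polyphosphate diphosphatase, rose by 0.36 ± 0.11 in promoter cells and 0.46 ± 0.11 in U1U2 cells, with calls lost under 6 and 1 of 11 alternatives, and its value in NT cells was -0.25 ± 0.11 (adjusted p 0.243). PPIP5K1, a kinase that makes inositol pyrophosphates, fell by 0.46 ± 0.13 in promoter cells, a call lost under 4 of 11. Of 20 tested genes of phosphatidylinositol synthesis and transfer, 2, 3 and 2 were called. Those counts are 10%, 15% and 10%, not far from the shares of all tested genes, so nothing is read from them. DGKG, a diacylglycerol kinase, fell by 1.21 ± 0.24, 0.90 ± 0.25 and 0.93 ± 0.25 in promoter, U1U2 and NT cells, and the U1U2 and NT calls were lost under 5 and 8 of 11 alternatives, in NT cells also with the replicate block (adjusted p 0.0581). PIGA, which starts the glycosylphosphatidylinositol anchor, rose by 0.53 ± 0.16 in U1U2 cells, and TAMM41, a mitochondrial synthase of the lipid precursor CDP-diacylglycerol, rose by 0.49 ± 0.14 in NT cells, with calls lost under 6 and 10 of 11 alternatives. CDS1, which makes the lipid precursor of phosphatidylinositol, was called lower in promoter and U1U2 cells on 2 to 4 and 0 to 3 counts per library in MPA, against 12 to 18 and 7 to 15 in vehicle, so its fold depends on few reads. Of 7 tested genes of sulfation donors and their breakdown, the setting of BPNT2, 1 was called, PAPSS2 in promoter cells (-0.39 ± 0.11, adjusted p 0.0237), a call lost under 5 of 11 alternatives. This is 14.3% of the list, beside 15% of all tested genes in promoter cells. BPNT1, the cytosolic relative of BPNT2, had values between -0.07 and 0.07 and was not called.

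**Figure D5:**
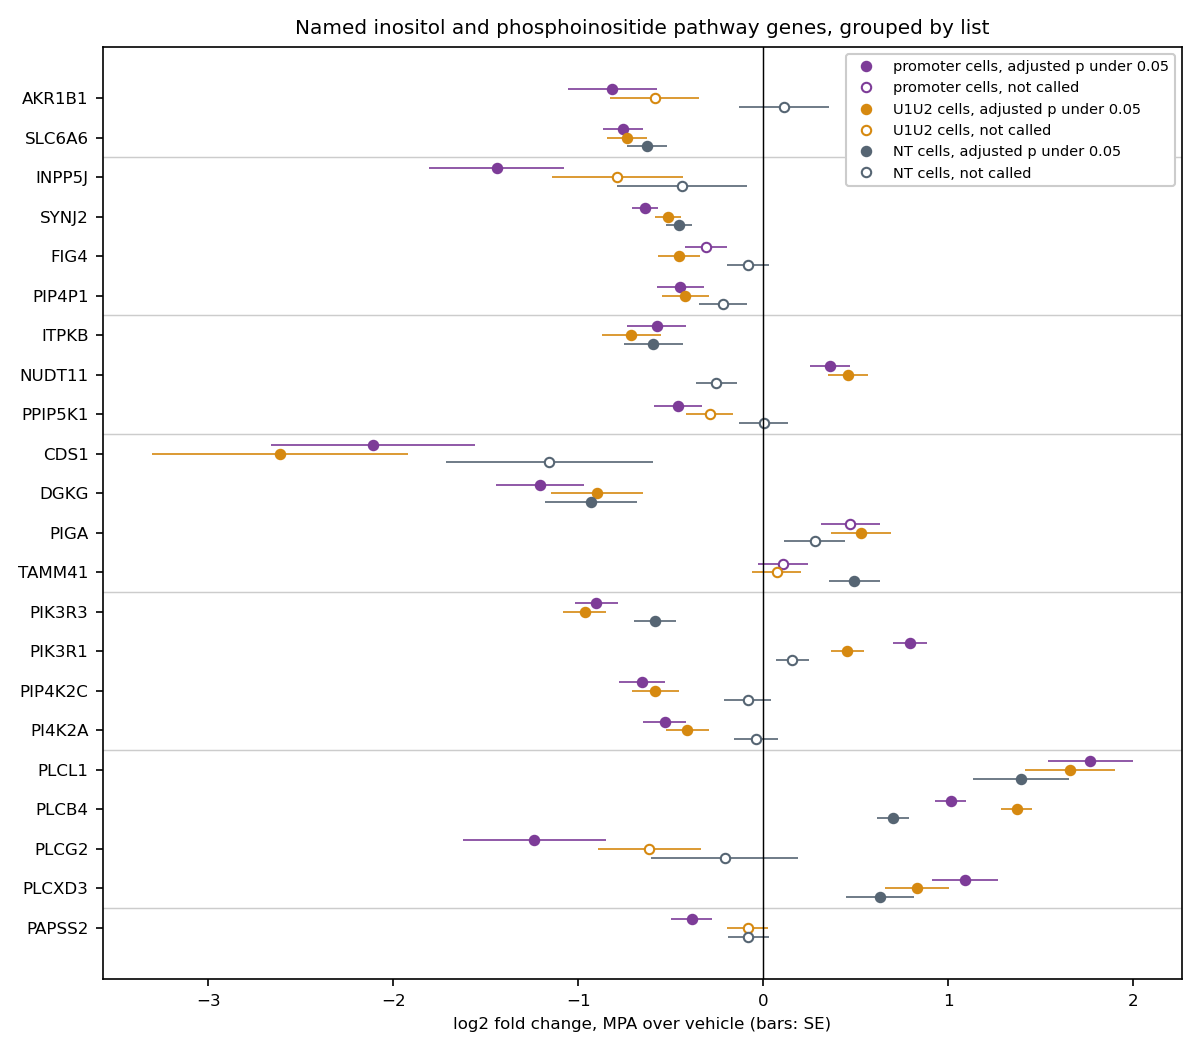
Log2 fold change of MPA over vehicle, with SE as bars, for 22 pathway genes named by list, in promoter, U1U2 and NT cells. Filled points have an adjusted p under 0.05 and open points do not, and SLC6A6, SYNJ2, ITPKB, DGKG and PIK3R3 lie below 0 and PLCL1, PLCB4 and PLCXD3 above 0 with filled points in all 3 lines, although the points of ITPKB in promoter and NT cells, DGKG in U1U2 and NT cells and PLCXD3 in NT cells did not stay called under every alternative.

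Along chromosome 18, 10 of 12 listed neighbours of IMPA2 were tested, within 754.6 kilobases. SPIRE1, an actin nucleator 415.6 kilobases away, was the 1 neighbour called, and it fell by 0.41 ± 0.06, 0.61 ± 0.06 and 0.44 ± 0.06 on the log2 scale in promoter, U1U2 and NT cells, opposite in sign to IMPA2. With 10% of the neighbours called in each line, beside 15%, 11.7% and 5.93% of all tested genes, nothing is read from this count. The antisense gene AP001269.1 inside IMPA2 shares 0 exon bases with it and had 3 counts in all libraries together.

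Across the 18 libraries, the genes whose log2 CPM was most like that of IMPA2, of 10955 compared, were CPM (carboxypeptidase M, Pearson's r 0.995), ADAMTS2 (0.992), CCN4 (0.991), LMCD1 (0.988), GLUL (0.987), CHST7 (0.985), CERS6 (0.981) and INHBB (0.979). The most opposite were SIPA1L2 (-0.985), SEMA3A (-0.982), MEST (-0.979) and BMP2 (-0.979). The 18 points fall into 6 groups and share library depth and composition, so these values describe a common pattern over groups and carry no p. The carboxypeptidase M gene averaged 172 CPM in U1U2 cells in MPA, against 25.3 CPM in vehicle. In MPA the 3 lines stood in the same order as for IMPA2. That gene was picked for its likeness to IMPA2 in these libraries, so nothing is read from the order. The 2 genes most like SLC5A3 were ZCCHC14 (0.957) and CLIP4 (0.948). Those most like the other genes were MRPL42 (0.950) and HSD17B12 (0.947) for IMPA1, CMPK1 (0.975) and TMTC3 (0.974) for BPNT2, ASAP2 (0.861) and MAPKAPK5 (0.857) for INPP1, and LIMK1 (0.872) and CLIP2 (0.854) for ISYNA1.

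Summed levels of markers of other cell types were lower in MPA in each line, with overlap for the epithelial markers in U1U2 cells. The sum of 7 endothelial markers, nearly all of it TEK, was 42.3 to 43.5 CPM in MPA, against 72.6 to 75.1 CPM in vehicle, in promoter cells, 45.4 to 50.6 against 66.8 to 74.6 CPM in U1U2 cells, and 44.1 to 46.4 against 55.4 to 59.0 CPM in NT cells. The sum of 8 epithelial markers, most of it KRT19, was 10.4 to 17.0 CPM in MPA, against 21.7 to 32.9 CPM in vehicle, in promoter cells, 8.11 to 20.2 against 18.9 to 28.1 CPM in U1U2 cells, and 9.01 to 14.4 against 16.1 to 26.7 CPM in NT cells. The sum of 8 leukocyte markers was 2.94 to 3.73 CPM in MPA, against 4.54 to 4.90 CPM in vehicle, in promoter cells, 2.34 to 2.83 against 3.87 to 4.38 CPM in U1U2 cells, and 2.34 to 2.89 against 4.60 to 6.003 CPM in NT cells. PTPRC alone ran from 1.55 to 5.48 CPM over the 18 libraries. The sum of 12 stromal markers was higher in MPA without overlap in U1U2 cells. It was 15072.6 to 17110.1 CPM there, against 13073.6 to 13196.6 CPM in vehicle. In promoter cells it was 14647.9 to 16141.6 against 10978.6 to 15183.3 CPM, and in NT cells 14611.2 to 17973.5 against 14095.7 to 17775 CPM, with overlap in both. With so few genes behind each sum, the sums do not measure amounts of other cell types. The part of these markers in the inositol gene values was not tested.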

How the data were processed

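The authors deposited 2 tables for the series, one with raw read counts by gene and one with log2 CPM. The submitters' processing notes name STAR 2.6.0c, hg38, R 4.4.1 and edgeR 4.2.2; the counter, its strand setting and its annotation are not given in the sources used here. Libraries were stranded poly(A) mRNA libraries, per the labels' protocols. The deposited log2 CPM table held 10402 genes, matched log2 CPM from the deposited counts within 5e-09, and entered no test.

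The counts entered edgeR 4.0.16 (R 4.3.3). Its filterByExpr step (minimum count 10) left 15558 genes, and 1 quasi-likelihood fit with a term for each of the 6 groups and TMM factors covered all 18 libraries. It gave 12 contrasts, adjusted over all tested genes with the Benjamini-Hochberg method, and "called" means an adjusted p under 0.05. CPM are TMM-scaled. Depth ran from 11.9 M to 33.4 M counts. The labels give 1 batch. DESeq2 1.42.0, other size factors, no filter, a replicate block, only the compared groups and leaving out each library were tried as alternatives.

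The members and lists were chosen with earlier results of these data known. Named pathway genes were up to 4 per list, the called ones with the largest absolute log2 fold change in any MPA contrast. The genes most like a member were the 8 highest and 4 lowest for IMPA2 and the 2 highest for the others, where the mean log2 CPM was 1 or more. Positions and exon lengths come from GENCODE 29.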

Additional observations from a re-analysis of the deposited data

Results flagged for a closer look

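The response to MPA differed between lines in 3 pathway genes by the edgeR test of the difference itself, adjusted over all genes. They were 2 of 102 for promoter minus NT, where 1.56% of all tested genes were called, and 1 of 102 for U1U2 minus NT, where 0.219% were called, so the first share is near that of all genes and the second rests on 1 gene. PIK3R1, a regulatory subunit of phosphoinositide 3-kinase, responded more in promoter than in NT cells, by 0.64 ± 0.13 on the log2 scale (adjusted p 0.014). In MPA it stood at 594, 593 and 606 CPM in promoter cells and 612, 535 and 539 CPM in NT cells, and in vehicle at 309, 355 and 369 CPM in promoter cells and 470, 520 and 522 CPM in NT cells. The call was lost without vehicle replicate 2 or 3 or MPA replicate 3 of NT cells and without vehicle replicate 1 or MPA replicate 3 of promoter cells, with adjusted p up to 0.054 and values from 0.57 to 0.72 over 17 alternatives. PLCB4 responded more in U1U2 than in NT cells, by 0.67 ± 0.12 (adjusted p 0.0225), and this call was lost under 11 of 17 alternatives, with adjusted p up to 0.21. PLCE1, a phospholipase C named only because its responses differed, responded more in promoter than in NT cells, by 0.47 ± 0.11 (adjusted p 0.0375), and its call was lost under 14 of 17 alternatives, with adjusted p up to 0.414. In vehicle PLCE1 was lower in promoter than in NT cells, at a log2 difference of -0.50 (adjusted p 0.00084, edgeR). That call was kept under all 11 alternatives. In MPA the same difference ran from -0.046 to -0.0046 with 1 library left out at a time, with no call.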

How the results depend on the processing

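Over the 60 tested results of the 5 inositol genes, 748 values under alternatives gave 737 on the same side of the threshold, 10 calls lost and 1 gained, with 0 reversals among called values. The 10 lost calls concerned SLC5A3 in MPA and the 1 gained concerned BPNT2 in U1U2 cells. SLC5A3 in MPA gave the only calls of the full fit, so the other results had no call to lose and the 737 say little about stability. The 748 values also hold the SLC5A3 contrast averaged over the lines, entered 3 times, which is a different contrast. With only the compared groups fitted, SLC5A3 in U1U2 cells was -0.53 (adjusted p 0.0635), and the number of pathway genes called was 32 in promoter cells (25 in the full fit), 14 in U1U2 cells (22 in the full fit) and 7 in NT cells (12 in the full fit); that fit has fewer libraries to estimate the spread. DESeq2 called 27, 24 and 13. With 1 library left out at a time, SLC5A3 ran from -0.71 to -0.47 in promoter, -0.68 to -0.40 in U1U2 and -0.60 to -0.47 in NT cells, and the pathway counts from 15 to 24, 13 to 25 and 7 to 10. IMPA2 ran from 3.60 to 3.80, 3.21 to 3.43 and 1.61 to 1.74 in promoter, U1U2 and NT cells.

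Replicate numbers are shared by all groups. Over 45 pairs of groups, deviations of same-numbered libraries correlated with r from -0.52 to 0.50 (median -0.05, 13 of 45 over 0.1). Differently numbered libraries were not compared, so these values do not decide whether same-numbered libraries share more than a number. With the replicate block the pathway counts were 23, 17 and 9 in promoter, U1U2 and NT cells, and SLC5A3 was -0.59, -0.53 and -0.52. With that block 0 of the 60 tested results of the inositol genes and 13 of 108 of the named pathway genes changed side. For the 27 named pathway and neighbour genes, 1242 alternative values gave 162 lost calls, 10 gained and 0 reversed. Low depth limits ISYNA1, at 4 to 32 counts per library, and CDS1, at 0 to 18.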

Other observations

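PIK3R1 was also lower between lines in vehicle, by 0.55 ± 0.09 on the log2 scale in promoter against NT cells (adjusted p 0.00124, edgeR), a call kept under all 11 alternatives run for it. PLCB4 in MPA was higher by 1.04 ± 0.08 in U1U2 against NT cells (adjusted p 9.36e-07) and by 0.57 ± 0.08 in promoter against NT cells (adjusted p 0.00029), both also kept under the 11 alternatives run for each.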
